A study of Mus musculus with 6 samples.

Results

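The *Zscan4* gene cluster was examined in DPPA4 CUT&RUN data from mouse embryonic stem cells. Its members were the genes *Zscan4a* to *Zscan4f* of the GENCODE vM21 annotation, 6 of 55413 annotated genes, and all deposited DPPA4 peaks on chromosome 7 from base 10740000 to base 11460000 (mm10), a window of 720 kb. The window held 83 of the 54647 peaks of the GFP-positive list and 6 of the 85177 peaks of the GFP-negative list. The cells were of a BL6/129 hybrid background and carried EHMT2, an H3K9 methyltransferase, fused to a dTAG degradation tag with mCherry, together with GFP under control of the promoter of the MERVL retrovirus. All groups, the controls included, were exposed to dTAG for 72 h, so every comparison was made in EHMT2-depleted cells. Live cells were then sorted into a GFP-positive fraction, taken as 2-cell-like cells (2CLCs), and a GFP-negative fraction, taken as ESCs. Sorting by a MERVL-driven reporter marks activity of that promoter alone. DPPA4 was profiled in 2 libraries per cell state. The 2 IgG libraries, 1 of GFP-negative cells and 1 of bulk cells, were not used here.

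ZSCAN4 proteins carry an N-terminal SCAN domain and C-terminal zinc fingers. In the mouse embryo their genes are transcribed in a burst at the 2-cell stage, when the zygotic genome is activated, and in ESC cultures they mark the rare cells that pass through a 2-cell-like state. DPPA4 and its partner DPPA2 bind DNA and are needed for normal activation of such genes in ESCs. The genes lie as near-identical copies in a tandem array rich in pseudogenes and repeats. CUT&RUN releases the DNA fragments at sites a protein occupies, so a peak is read as occupancy and not as transcription. Transcription was not measured in this series. No IgG library of GFP-positive cells was among the samples, so signal that does not depend on DPPA4 was not assessed in these cells.

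Each list pools the 2 libraries of its group. The values below therefore have no replicate error, no difference was tested, and the number of reads left in each list after filtering is unknown. Reads that fitted several places were put by the authors at the best or a randomly chosen one, so a peak in sequence shared by several copies does not say which copy was occupied. The reference is C57BL/6J, and differences of the 129 allele were not examined.

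DPPA4 peaks were dense across the cluster in GFP-positive cells and sparse in GFP-negative cells. The GFP-positive list had 115 peaks per Mb in the window, against 20.05 per Mb over all chromosomes. The GFP-negative list had 8.33 per Mb in the window, against 30.7 per Mb over all chromosomes. GFP-positive peaks covered 119805 bp or 16.6% of the window, and 2.10% of all chromosomes. GFP-negative peaks covered 2817 bp or 0.391% of the window, and 2.53% of all chromosomes. The cluster thus lay above its list's average in GFP-positive cells and below it in GFP-negative cells.

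Overlapping peaks (1 bp or more) of the lists were joined into regions. Of the 84 regions of the window, 79 held GFP-positive peaks alone, which is 94.0% (Wilson 95% interval 86.8% to 97.4%, counting error only), whereas 18.4% of the 99695 regions of all chromosomes did. Only 4 regions were common to both lists, against 35% of all regions. A single region was specific to GFP-negative cells, against 46.7% of all regions. Among 3757 windows of the same length, the cluster ranked 4 by GFP-positive-specific regions, and the median window had 2.

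**Figure D1:**
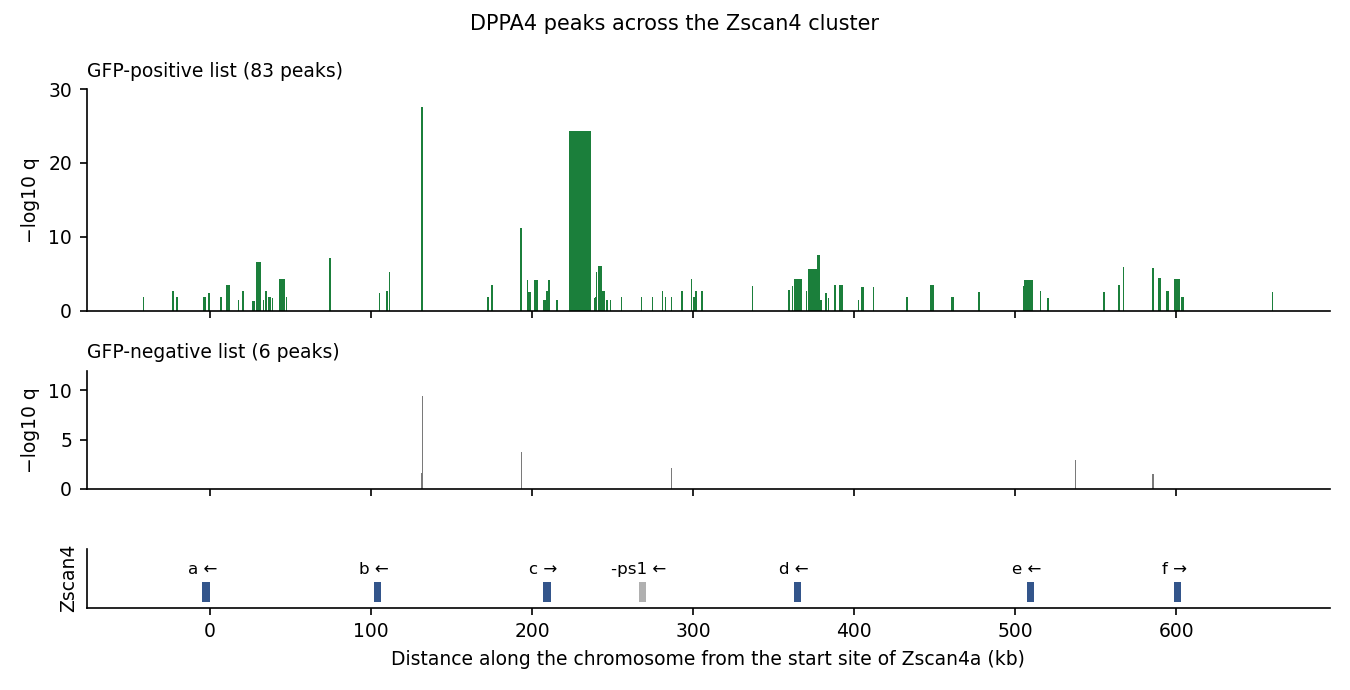
DPPA4 peaks across the *Zscan4* cluster, with distance from the start site of *Zscan4a* (kb) on the x axis and the −log10 q of each peak on the y axis (bar width is peak width, at least 0.8 kb for visibility). The 83 GFP-positive peaks (green) run through the whole array, the 6 GFP-negative peaks (grey) stand at 5 places between *Zscan4* copies, and arrows give the strand of each *Zscan4* copy (blue, members; light grey, *Zscan4-ps1*).

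Most of these peaks were weak. The −log10 q, the significance that MACS2 gave each peak, had a median of 2.66 for GFP-positive peaks of the window and 3.44 over the list. A −log10 q of at least 5 was reached by 12 of 83 peaks, 14.5%, against 37.7% of the list. The fold enrichment over background had a median of 3.99 in the window and 4.13 over the list. The 6 GFP-negative peaks had −log10 q values of 9.46, 3.71, 2.89, 2.14, 1.57 and 1.4997. Thus many peaks of modest strength, with a few strong ones, made up the signal of the cluster.

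**Figure D2:**
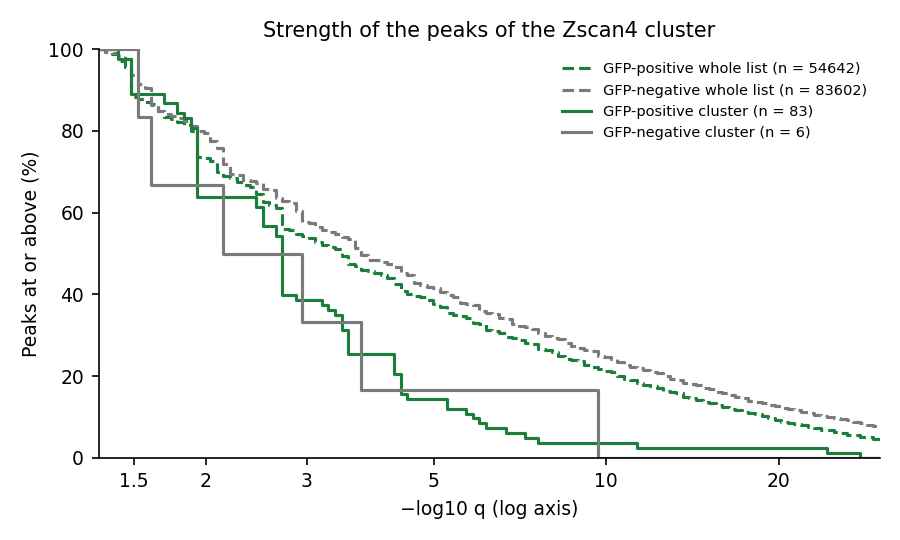
Share of peaks (y axis, %) at or above each −log10 q (x axis, log scale) for the peaks of the *Zscan4* cluster (solid lines) and the whole lists (dashed lines). Above a −log10 q of 5 both cluster curves lie below those of their whole lists, with 14.5% against 37.7% of peaks in the GFP-positive lists.

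GFP-positive peaks of the cluster were also wide. Their median width was 1016 bp (quartiles 630.5 and 1515 bp, range 187 to 14066 bp), against 825 bp over the list. Peaks wider than 4 kb numbered 4 of 83, 4.82%, against 1.224% of the list. The 6 GFP-negative peaks were 248 to 770 bp wide with a median of 471.5 bp, against 643 bp over their list. Of the 4 widest, *Zscan4d* and *Zscan4e* each lay under 1, and the other two lay over repeats near *Zscan4c* and *Zscan4d* described further on.

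All 6 gene bodies had DPPA4 peaks in the GFP-positive list and none had one in the GFP-negative list. A GFP-positive peak touched 6 of 6 bodies, where 36.3% of all genes and 39.3% of genes of 4 to 5 kb were touched. A GFP-negative peak touched 0 of 6, where 41.3% of all genes and 45.3% of those of 4 to 5 kb were touched. GFP-positive peaks covered 95.9% of the body of *Zscan4f* (chromosome 7, 11397915 to 11402318, plus strand). They covered 91.4% of *Zscan4d* (11161374 to 11166159, minus strand) and 90.6% of *Zscan4e* (11306378 to 11310682, minus strand). *Zscan4c* (11005745 to 11010547, plus strand) followed with 85.6%. Coverage was lower in *Zscan4a* (10794242 to 10799057, minus strand) with 43.4%, a copy that vM21 lists as an unprocessed pseudogene. It was lowest in *Zscan4b* (10900740 to 10905050, minus strand) with 13.3%. *Zscan4b* to *Zscan4f* are listed as protein-coding genes, so annotation as a pseudogene did not order the copies by coverage.

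The peaks of the bodies resembled each other in position. Each gene has 4 exons, and exon 2 is 472 bp long in all 6 copies. Exon 2 lay wholly under a GFP-positive peak in 5 genes and to 78.0% in *Zscan4a*. A summit fell inside exon 2 in 5 of 6 genes, within 34 bases of each other, between base 251 and base 285 of the exon. These summits had a −log10 q of 4.37 in *Zscan4d*, 4.30 in *Zscan4f*, 2.46 in *Zscan4a*, 2.39 in *Zscan4b* and 1.46 in *Zscan4c*. In *Zscan4e* a single peak of 5923 bp spanned exon 2, and its summit lay 5343 bp after the start, past the end of the gene. Exon 1 was covered by 100% in *Zscan4d*, by 63.4% in *Zscan4f*, by 4.67% in *Zscan4c* and by 0 in the other three.

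The sequence under these summits shows how alike the copies are. Bases 201 to 300 of exon 2, which are coding in *Zscan4b* to *Zscan4f*, were the same in *Zscan4a*, *Zscan4b*, *Zscan4c*, *Zscan4e* and *Zscan4f* and differed by 1 base in *Zscan4d* (C26T, counted from 1 at the 5′ end of the stretch). The stretch of *Zscan4c* stands at chr7:11006659-11006758 (GRCm38, plus strand) and that of *Zscan4d* at chr7:11165146-11165245 (minus strand), both printed 5′ to 3′ along the gene with the base that differs from *Zscan4c* in capitals.
Zscan4c: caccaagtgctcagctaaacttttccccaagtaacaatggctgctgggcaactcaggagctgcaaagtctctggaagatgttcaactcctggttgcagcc
Zscan4d: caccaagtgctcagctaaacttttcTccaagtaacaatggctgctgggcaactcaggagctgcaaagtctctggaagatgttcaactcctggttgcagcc

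A read from this stretch cannot be placed in one of the identical copies. Of the 100-base words of exon 2, the length of 1 read, 0% occurred once in the genome in *Zscan4a*, *Zscan4c*, *Zscan4e* and *Zscan4f*. The share was 26.8% in *Zscan4b* and 81.5% in *Zscan4d*. Across whole bodies it was 79.2% in *Zscan4d*, 65.9% in *Zscan4a*, 35.3% in *Zscan4b*, 33.5% in *Zscan4e*, 22.7% in *Zscan4c* and 9.57% in *Zscan4f*. *Zscan4d*, the copy that reads could be placed in most often, had 1 peak of 4629 bp over its body, from before the start to 4374 bp after the start, with a fold enrichment of 4.68. The gene bodies matched each other at 95.3% to 99.5% identity in blastn. The closest pairs were *Zscan4b* with *Zscan4e* (99.5%) and *Zscan4c* with *Zscan4f* (99.4%).

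The remaining peaks of the bodies lay further in. *Zscan4c* had 3 peaks, with summits 968, 2126 and 4012 bp after the start and −log10 q values of 1.46, 2.66 and 4.18. *Zscan4f* had a peak of 3637 bp from 30 bp after the start and a second one with its summit 4158 bp after the start (−log10 q 1.84). *Zscan4a* had a second peak from 2790 to 4511 bp after the start (−log10 q 1.83). Exon 4, the last, was covered in 5 genes by 73.2% to 100% and in *Zscan4b* by 0%. The first 2 kb of every gene was touched by a GFP-positive peak.

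Just upstream of the start, the picture turned around. A GFP-positive peak touched the interval from 2.5 kb upstream to 0.5 kb downstream of the start in 4 of 6 genes, *Zscan4c*, *Zscan4d*, *Zscan4e* and *Zscan4f*, where 32.7% of all gene starts and 57.1% of protein-coding starts were touched. A GFP-negative peak touched 0 of 6, where 38.7% of all starts and 65.7% of protein-coding starts were touched. A GFP-positive peak with no GFP-negative peak, as in these 4 genes, was present at 2.72% of all starts and 2.15% of protein-coding starts. The 4 genes were reached from inside the gene, and the summit of a peak lay in this interval in 0 of 6. The first transcribed base was under a GFP-positive peak in 1 of 6, *Zscan4d*, where 25.8% of all starts were. It was under a GFP-negative peak in 0 of 6, where 30.1% of all starts were. In the 1-kb bins from 3 kb to 1 kb upstream, 0 of 6 genes had a GFP-positive peak, and in the last 1 kb before the start only *Zscan4d* did.

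From 5 to 3 kb upstream the peaks were back. In the bins from 5 to 4 kb and from 4 to 3 kb upstream, 5 of 6 genes had a GFP-positive peak, with 61.2% and 62.8% of bases covered on average. The nearest upstream summit lay 3588 bp from the start in *Zscan4d*, 4024 bp in *Zscan4b*, 4252 bp in *Zscan4c*, 4270 bp in *Zscan4e* and 4407 bp in *Zscan4f*. In *Zscan4a* it lay 6660 bp away. The 2.5 kb before the start was more unique than the gene body, with 49.6% to 97.8% of 100-base words present once. It had few peaks, and whether uniqueness bears on their number was not tested. Over 10 kb upstream, GFP-positive peaks covered 67.5% in *Zscan4d*, 42.2% in *Zscan4c*, 39.7% in *Zscan4f*, 20.2% in *Zscan4e*, 16.6% in *Zscan4b* and 8.81% in *Zscan4a*. The mean was 32.5% upstream and 10.71% over 10 kb downstream of the gene end. GFP-negative peaks covered 0 in both.

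**Figure D3:**
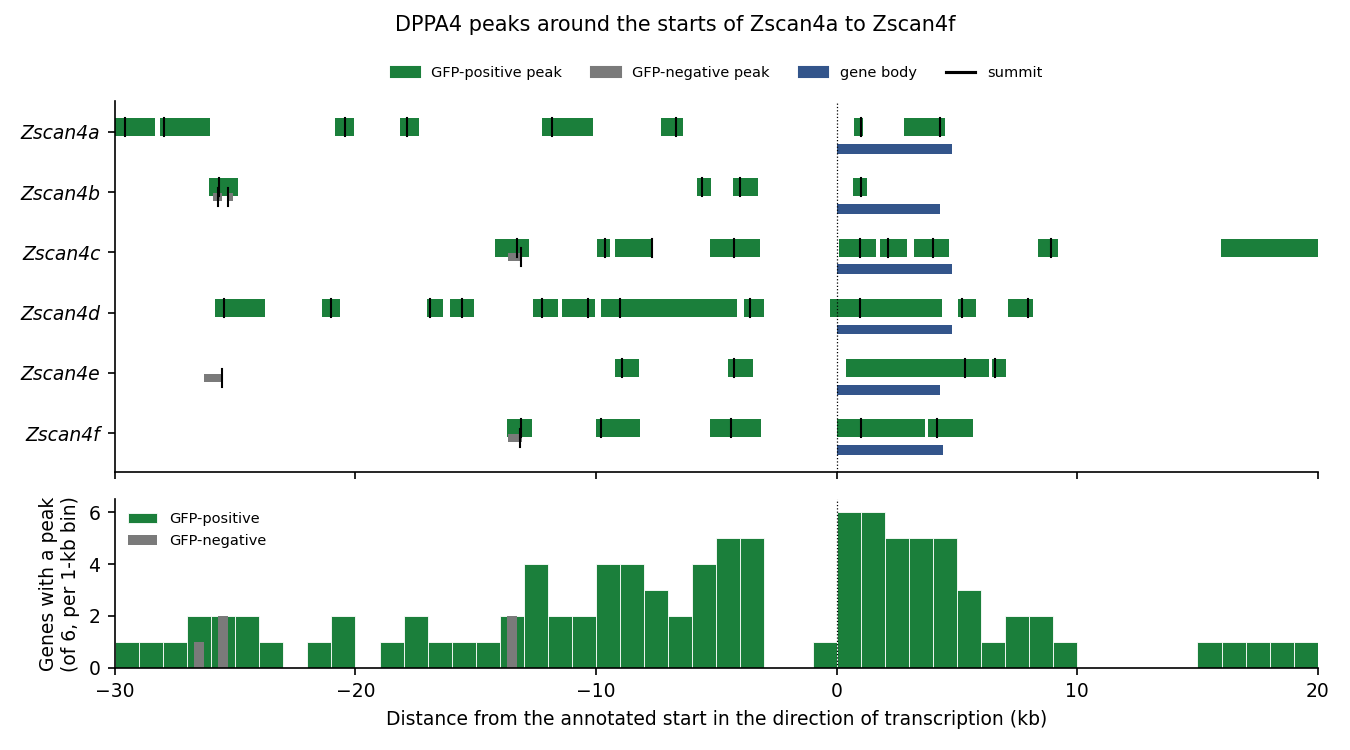
The 6 genes aligned at their annotated start (x axis, kb in the direction of transcription): upper panel, GFP-positive peaks (green), GFP-negative peaks (grey), summits (black ticks) and gene bodies (blue) of each gene; lower panel, number of the 6 genes with a peak in each 1-kb bin. Green touches the first 2 kb of all 6 genes, although most of these bases are uncovered in *Zscan4a* and *Zscan4b*. It returns 5 to 3 kb upstream in 5 of 6, with 0 of 6 from 3 to 1 kb upstream. Grey appears only beyond 13 kb upstream.

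RefSeq promoters (250 bases before the start, GRCm38.p6) were given for *Zscan4b*, *Zscan4c*, *Zscan4d* and *Zscan4f*. A GFP-positive peak covered 100% of that of *Zscan4d* and 0% of the other three, and GFP-negative peaks covered 0% of all. All 4 held the letters TATAAAA, which 5.48% of 32851 promoters of 300 bases in the same table held on either strand. It began 65 bases before the start of the promoter entry in *Zscan4d*, 54 in *Zscan4c* and 31 in *Zscan4b* and *Zscan4f*. The promoters of *Zscan4c* and *Zscan4d* are printed 5′ to 3′ with TATAAAA in capitals. They stand at chr7:11005495-11005744 (plus strand) and chr7:11166149-11166398 (minus strand).
Zscan4c promoter: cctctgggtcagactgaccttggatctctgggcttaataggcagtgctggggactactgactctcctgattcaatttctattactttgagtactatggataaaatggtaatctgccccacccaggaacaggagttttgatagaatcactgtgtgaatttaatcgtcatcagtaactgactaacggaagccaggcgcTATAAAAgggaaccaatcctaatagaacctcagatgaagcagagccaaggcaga
Zscan4d promoter: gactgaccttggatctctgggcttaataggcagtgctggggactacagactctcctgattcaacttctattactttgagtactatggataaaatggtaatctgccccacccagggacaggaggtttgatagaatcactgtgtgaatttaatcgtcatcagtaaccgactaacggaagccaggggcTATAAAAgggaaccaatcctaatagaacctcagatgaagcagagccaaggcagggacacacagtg
With a GC content of 46.3% to 47.7%, these promoters were below the median of the table (52.7%), and they held 1 to 4 CpG against a median of 7.

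The upstream peaks belonged to 1 family of related sequences. When the 200 bp at each summit were matched to the window at 90% identity over 80% of their length, 8 GFP-positive peaks were linked as 1 family, found near 7 of 7 *Zscan4* copies of the window (the 6 members and *Zscan4-ps1*). Peaks were linked through shared matches, so not every pair was alike. The summit nearest each copy lay 3.59 to 6.66 kb upstream. At each copy the summit stood in, or up to 2.5 kb before, a processed pseudogene on the strand opposite to *Zscan4*, 7 of 7: *Gm18781*, *Gm45279*, *Gm18122*, *Gm33601*, *Gm18204*, *Gm45870* and *Gm18123*. At *Gm33601* the whole peak lay before the pseudogene. The −log10 q was 1.93 at *Gm18781* and *Gm33601*, 2.65 at *Gm45870*, 2.66 at *Gm45279*, 2.72 at *Gm18123* and 4.18 at *Gm18122*. *Gm18204*, next to *Zscan4d*, had a peak of 2.68 and one of 7.50, the highest of the family. A GFP-negative peak touched 0 of the 8. At both summits near *Zscan4d* and at the one near *Zscan4-ps1*, 100% of 100-base words were present once, whereas at those near *Zscan4b*, *Zscan4c* and *Zscan4f* 0% were.

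The 100 bases at the summit nearest *Zscan4d* are shown beside the matching stretches near *Zscan4a*, *Zscan4b* and *Zscan4c*, in the direction of the *Zscan4* gene, with bases that differ from the *Zscan4d* stretch in capitals. They stand at chr7:10805569-10805668 (minus strand), chr7:10909086-10909185 (minus strand), chr7:11001568-11001667 (plus strand) and chr7:11169698-11169797 (minus strand), GRCm38.
Gm18781 near Zscan4a: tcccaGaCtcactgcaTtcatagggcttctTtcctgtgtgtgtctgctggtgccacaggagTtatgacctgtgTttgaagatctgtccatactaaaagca
Gm45279 near Zscan4b: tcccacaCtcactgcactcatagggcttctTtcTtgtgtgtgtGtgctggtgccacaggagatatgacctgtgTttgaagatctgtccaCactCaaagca
Gm18122 near Zscan4c: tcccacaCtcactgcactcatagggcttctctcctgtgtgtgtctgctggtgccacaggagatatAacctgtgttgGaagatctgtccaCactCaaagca
Gm18204 near Zscan4d: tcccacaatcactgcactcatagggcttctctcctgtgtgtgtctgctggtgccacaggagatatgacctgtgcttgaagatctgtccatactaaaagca
The substitutions numbered 6, 7 and 4, with 1 inserted and 1 missing base near *Zscan4c*. The stretch near *Zscan4e* was the same as that near *Zscan4b*, and the stretch near *Zscan4f* the same as that near *Zscan4c*. The other two peaks matched less well. At the second *Gm18204* peak the stretch had 22 substitutions with 6 inserted and 6 missing bases. Near *Zscan4-ps1* only 73 bases could be aligned, with 14 substitutions, 1 inserted and 28 missing bases, and 0% of them lay under a GFP-positive peak.

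Peaks of both lists stood at a second repeated sequence further upstream. It occurred 5 times in the window, within pseudogenes of the unprocessed kind. In *Gm7789*, 13.1 kb upstream of *Zscan4c*, the −log10 q was 11.3 in the GFP-positive and 3.71 in the GFP-negative list. In *Gm45598*, 13.1 kb upstream of *Zscan4f*, it was 5.81 and 1.4997. In *Gm7151*, next to *Zscan4-ps1*, it was 1.93 and 2.14. In *Gm7203*, 17.7 kb upstream of *Zscan4a*, a GFP-positive peak of 1.41 stood without a GFP-negative peak, and the stretch in *Gm39481* had a peak in neither list. Hence 4 of 5 copies lay under a GFP-positive and 3 of 5 under a GFP-negative peak, and 3 of the 4 common regions of the cluster were copies of it. The 100 bases at the GFP-negative summit in *Gm7789* (chr7:10992557-10992656, plus strand) and the stretches in *Gm45598* (chr7:11384765-11384864, plus strand), *Gm7203* (chr7:10816724-10816823, minus strand), *Gm7151* (chr7:11085349-11085448, minus strand) and *Gm39481* (chr7:11235889-11235988, minus strand) are printed with bases that differ from *Gm7789* in capitals.
Gm7789: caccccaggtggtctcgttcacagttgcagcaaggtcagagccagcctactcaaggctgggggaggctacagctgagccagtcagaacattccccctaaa
Gm45598: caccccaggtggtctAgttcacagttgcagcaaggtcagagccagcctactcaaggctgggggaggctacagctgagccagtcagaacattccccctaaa
Gm7203: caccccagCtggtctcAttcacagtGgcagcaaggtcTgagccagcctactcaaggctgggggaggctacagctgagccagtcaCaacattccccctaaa
Gm7151: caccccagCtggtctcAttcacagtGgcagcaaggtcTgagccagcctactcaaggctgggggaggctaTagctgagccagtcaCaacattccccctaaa
Gm39481: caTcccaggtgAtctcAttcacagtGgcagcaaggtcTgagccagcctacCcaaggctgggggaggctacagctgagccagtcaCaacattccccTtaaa
The substitutions numbered 1, 5, 6 and 8. The sequence in *Gm39481*, which had no peak, was the one with the most substitutions. This is 1 copy, and a link between substitutions and peaks was not tested.

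The fourth common region held the strongest peak of the cluster. It lay 25.7 kb upstream of *Zscan4b* at chr7:10929949-10931134, with a −log10 q of 27.6, a fold enrichment of 12.2 and rank 2859 of the 54642 GFP-positive peaks on chromosomes. The strongest GFP-negative peak of the cluster, with a −log10 q of 9.46 and a fold enrichment of 6.63, lay inside it, as did a weak one of 1.57. Of its bases 98.6% were soft-masked, that is, marked as repeats. Under the GFP-negative peak, 98.8% of bases were the same as the base 208 bp further on, a tandem repeat of that period. The period at the summit (chr7:10930605-10930812, plus strand) was as follows.
Tandem period: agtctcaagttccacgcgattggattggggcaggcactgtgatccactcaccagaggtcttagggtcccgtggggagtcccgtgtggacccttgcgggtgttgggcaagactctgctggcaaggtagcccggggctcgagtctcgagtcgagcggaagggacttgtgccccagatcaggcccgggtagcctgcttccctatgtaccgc
It held 12 CpG. At its GFP-negative summits 0% of 100-base words were unique. The median 100-base word occurred 1170 times in the genome at the GFP-positive summit and 1074 times at the stronger GFP-negative summit. Reads of this region could thus have come from copies elsewhere in the genome.

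The second strongest peak was also the widest. It ran over 14066 bp at chr7:11021707-11035772 between *Zscan4c* and *Zscan4-ps1*, with a −log10 q of 24.3, a fold enrichment of 12.7 and a summit 25.5 kb downstream of the start of *Zscan4c*. GFP-negative peaks were absent there. The next strongest were the *Gm7789* peak (11.3), a peak over *Gm18204* 10.4 kb upstream of *Zscan4d* (7.50) and one 31.9 kb downstream of the start of *Zscan4b* (7.09).

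The left part of the 14066 bp peak covered an element of 6.48 kb that begins and ends with a direct repeat. Such elements were sought after the peaks had been seen, as direct repeats of at least 300 bp with 95% identity that begin 3 to 9 kb apart, and 11 were found in the window. GFP-positive peaks covered 96.5% of this one, 18.98 kb downstream of the start of *Zscan4c*. They covered 92.1% of an element 7.0 kb upstream of *Zscan4d* and 85.6% of one 28.9 kb upstream of *Zscan4a*. These 3 were 6.41 to 6.48 kb long, with repeats of 495 to 504 bp that were 99.6% to 99.8% identical, and they matched each other at 97.49% to 97.95%. The other 8 elements were covered by 0% to 45.03%. GFP-negative peaks covered 0% of all 11. The class of the elements was not assigned, since no repeat annotation was used here.

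These elements are copied many times in the genome. The median 31-base word of the flanking repeat occurred 792, 839.5 and 978 times in the genome in the 3 elements, and 2.90% to 15.7% of their 100-base words were unique. Most reads of these elements could thus have come from copies elsewhere in the genome. The first 100 bases of the left repeat of the element near *Zscan4a* (chr7:10824791-10824890, plus strand) are printed so that it can be recognised.
Flanking repeat: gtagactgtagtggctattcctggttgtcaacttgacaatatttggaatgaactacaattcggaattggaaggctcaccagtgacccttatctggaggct

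**Figure D4:**
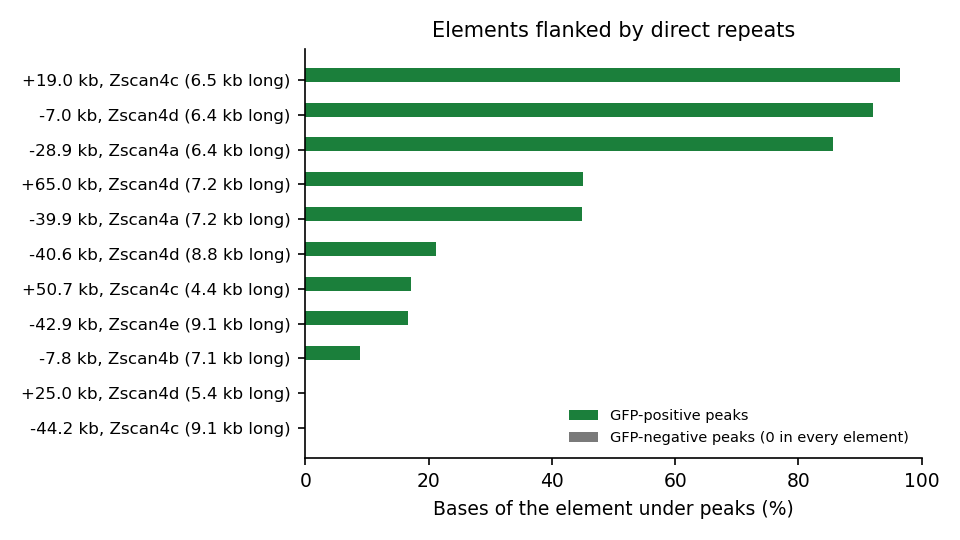
Share of bases (x axis, %) of each of the 11 elements flanked by direct repeats that lay under GFP-positive peaks (green) and GFP-negative peaks (grey), with the distance of the middle of the element from the nearest *Zscan4* start and its length on the y axis. The 3 elements of 6.41 to 6.48 kb stand apart at 85.6% to 96.5%, and the grey bars are at 0 throughout.

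Most peaks lay between the genes, as did most of the sequence. Member bodies make up 3.81% of the window and held 9 of the 83 GFP-positive summits, and 74 lay in spacers and flanks. The spacer between *Zscan4c* and *Zscan4d* (150.8 kb) had 23 summits and 22.3% of its bases covered. The spacer between *Zscan4a* and *Zscan4b* (101.7 kb) had 13 summits and 18.7%, and that between *Zscan4d* and *Zscan4e* (140.2 kb) had 17 and 17.5%. Between *Zscan4e* and *Zscan4f* (87.2 kb) there were 8 summits and 11.6%, and between *Zscan4b* and *Zscan4c* (100.7 kb) 9 and 9.80%. The outer flanks were covered less than the spacers but no less than the 2.10% of all chromosomes, with 3 summits and 3.15% before *Zscan4a* and 1 summit and 2.92% after *Zscan4f*. The 6 GFP-negative summits lay in 3 spacers, with 3 between *Zscan4b* and *Zscan4c*, 1 between *Zscan4c* and *Zscan4d* and 2 between *Zscan4e* and *Zscan4f*.

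Of the 83 GFP-positive summits 41 were intergenic (49.4%), 19 lay in promoters, 13 in exons and 10 in introns of annotated genes. A summit counted as promoter when within the interval around an annotated start given above. The matching shares of the whole list are not given here, so no difference from it can be read. Since most genes of the window are pseudogenes, 90.4% of summits were intergenic when only protein-coding genes were used. Of the 38 other genes in the window, 20 were assigned a GFP-positive summit in the body or promoter, and 3 a GFP-negative one, *Gm7789*, *Gm7151* and *Gm45598*. The share of all genes assigned a summit in this way is not given here either. With 3 GFP-positive summits each, *Gm7203*, *Gm7789*, *Gm18204*, *Gm6909* and *Gm9689*, all pseudogenes, had the most. *Vmn1r71*, a vomeronasal receptor gene at the edge of the window, had none in either list. The copy *Zscan4-ps1* (11065139 to 11069691, minus strand), which is not a member, had 1 GFP-positive peak in its body (−log10 q 1.87) and 8.04% of it covered.

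Peaks stood at many matching places of a long repeated stretch of the cluster. The part with *Zscan4b* and *Zscan4c* and the part with *Zscan4e* and *Zscan4f* matched in 5 blocks of at least 10 kb, 157 kb in all, in the same order and on the same strand, at 97.6% to 99.3% identity. Each side held 14 GFP-positive summits within the blocks. Of those on the *Zscan4b* and *Zscan4c* side, 13 of 14 had a GFP-positive peak within 1 kb of the matching place on the other side. In the reverse direction it was 10 of 14. Neighbouring GFP-positive peaks of the window lay a median of 2.86 kb apart. The share of arbitrary places within 1 kb of a peak is not given here, so these counts cannot show recurrence beyond the density of peaks. GFP-positive peaks covered 11.6% of the blocks on the first side and 16.3% on the second, and 37.8% and 36.4% of 100-base words were unique. Reads of the rest could have been placed on either side, so the likeness of both sides is not independent evidence of occupancy at each. Repeated blocks outside this pairing varied, and not all of them are given here. In a block of 21.2 kb, 3 of 6 summits of the first side and 4 of 4 of the second had such a partner. In a block of 19.5 kb, the first side held 2 summits and the second 0.

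**Figure D5:**
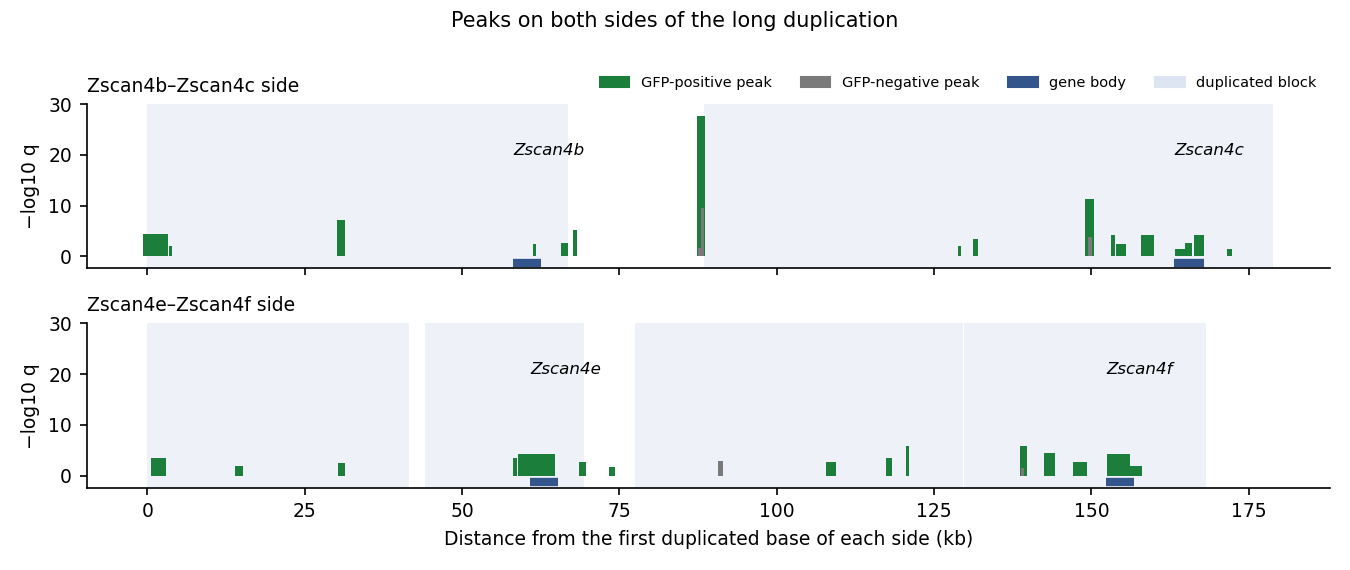
Peaks on the *Zscan4b* and *Zscan4c* side (upper panel) and the *Zscan4e* and *Zscan4f* side (lower panel) of the long duplication, with distance from the first duplicated base of each side (kb) on the x axis and −log10 q on the y axis (bars at least 0.5 kb wide). GFP-positive peaks (green) stand near both genes of each pair. A peak lay within 1 kb of the matching place for 13 of 14 summits in one direction and 10 of 14 in the other. The tallest bar of the upper panel, at 27.6, lies at the edge of a block (shaded).

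The GFP-negative-specific region had no peak at its matching place. It was a peak of 770 bp between *Zscan4e* and *Zscan4f* (chr7:11336194-11336963, −log10 q 2.89). The same 770 bp, at 100% identity, stand between *Zscan4b* and *Zscan4c* (chr7:10944173-10944942), where neither list had a peak. At its summit 0% of 100-base words were unique.

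Repetition held for most peaks of the window. Of the 83 GFP-positive summits 75 had a match elsewhere in the window, and 56 (67.5%) matched sequence under another GFP-positive peak. Together the summits had 291 other places in the window, of which 151 lay under GFP-positive peaks and 8 under GFP-negative peaks. The 83 peaks fell into 31 families, 12 of which had 2 or more peaks and held 64 of them. The families with most peaks had 13 each, 1 with most of its summits in bodies of *Zscan4* copies and 1 that included the elements flanked by direct repeats. By 31-base words, 68 of 83 summits (81.9%) lay in sequence with a genome copy number above 1, against 26.8% of the list, and 78.3% of all such words in the window were repeated too. At read length the share was 32.5%, against 16.9% of the list and 45.6% in the window. For 23 of the 83 summits all 100-base words were unique, with a median −log10 q of 2.68. All 23 of these peaks were GFP-positive-specific, as were 95.2% of the 83, so no difference can be read from this count. GFP-positive-specific peaks of the cluster were thus also found at summits where every 100-base word was unique. None of the 23 lay in the body of a member. By 31-base words some of these summits were mostly repeated, with 7.06% unique at a summit in *Gm7203*. Shorter reads may therefore fit other places, and the role of read placement was not tested.

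Related genes outside the cluster mostly had peaks of both lists. Of 12 SCAN zinc finger genes elsewhere in the genome, *Zscan2*, *Zscan5b*, *Zscan10*, *Zscan12*, *Zscan18*, *Zscan20*, *Zscan21*, *Zscan22*, *Zscan25*, *Zscan26*, *Zscan29* and *Zscan30*, 10 had peaks of both lists at the start and 2 of neither, where 30% of all starts and 55% of protein-coding starts had both. A GFP-positive peak alone was present at 0 of 12, and with 2.15% of protein-coding starts in that class no difference can be read from this count. Of 9 regulator genes (*Duxf3*, *Dppa2*, *Dppa4*, *Tbx3*, *Smarcad1*, *Trim28*, *Zfp462*, *Ehmt1* and *Ehmt2*), 7 had peaks of both lists at the start, 1 of the GFP-positive list alone and 1 of neither. The one with a GFP-positive peak alone was *Dppa4* itself (−log10 q 1.46, fold enrichment 3.30).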

How the data were processed

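DPPA4 CUT&RUN was performed in 2 libraries each of GFP-negative and GFP-positive cells. Per the methods of the study, adapters were trimmed, reads aligned to mm10 with STAR (2.7.10 per the submitters' processing notes) in a mode that keeps multimapping reads at a single best or random position, duplicates removed with Picard (2.26.0) and peaks called with MACS2 (2.2.6). Whether IgG served as control is not given in the sources used here. The authors deposited 1 pooled peak list per cell state. The fold enrichment is the authors' ratio at the summit, the −log10 q is the authors' significance value, the deposited score was not used, and the deposited summit offset gave the summit.

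Here, peaks on the chromosome 7 window were taken and placed on GENCODE vM21. Sequence came from RefSeq GRCm38.p6. Copy number was the median genome count of 31-base or 100-base words in 200 bp around a summit, counted on both strands (numba 0.67.0) and tested on simulated sequence. Matches were found with blastn 2.17.0. Intervals are Wilson 95% intervals (SciPy 1.17.1) and cover counting error only. Depth after filtering is unknown. Lists pool replicates, so no test was made. Alternatives were the peak threshold, list size, window, overlap, start interval, annotation, identity and word length. Named were the 6 members, other genes of the window with a summit, the 5 strongest peaks of each list, and related genes and regulators by counts. The members, lists and rules were chosen with earlier results of these data known.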

Additional observations from a re-analysis of the deposited data

How the results depend on the processing

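Values at the deposited threshold stand first. When a −log10 q of 5 or more was required of every peak, the window held 12 GFP-positive peaks (83 at the deposited threshold) and 1 GFP-negative peak (6), 0 *Zscan4* starts had a GFP-positive peak (4), 33.3% of GFP-positive peaks matched another one (67.5%) and the window ranked 11 among equal windows (4). With the 10000 strongest peaks of each list, 2 GFP-positive and 0 GFP-negative peaks remained, 100% of 2 regions were GFP-positive-specific (94.0% of 84), 0 starts had a GFP-positive peak and the rank was 282. Counting summits instead of peaks, 0 starts were hit. With protein-coding genes alone, 90.4% of summits were intergenic (49.4%). At 98% identity, 45.8% of peaks matched another one. By 100-base words 32.5% of summits, and at a copy number of 10 or more 19.3%, lay in repeated sequence (81.9%). The other 15 of 32 alternative values were counted as unchanged. Among them were the starts with a GFP-positive peak within 1 kb or 5 kb, which nevertheless rose to 6 (4). Both of these intervals reach further into the gene than the reported one. A threshold on both lists also removes weak GFP-negative partners, so its GFP-positive-specific shares (91.7% at 5 or more, and 10.6% of all regions) cannot show that the contrast holds. With the threshold on the GFP-positive list alone, chosen after seeing the data, peaks without a deposited GFP-negative peak were 95.2% of 83 (33.5% of the whole list), 75% of the 12 of 5 or more (9.86%) and 50% of the 2 among the 10000 strongest (2.06%). The count and the reach to the gene starts rested on weak peaks, and the cause was not tested. No paired analysis was possible because both lists were made from pooled libraries, and for that reason no replicate could be left out. Depth limits these lists: a region without a peak may hold occupancy below detection.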

Other observations

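*Zscan4-ps2* (chromosome 7, 11514310 to 11519111) and *Zscan4-ps3* (11609308 to 11614112) lie beyond the window and were in no comparison. GFP-positive peaks covered 57.1% of the body of *Zscan4-ps2* and 62.9% of that of *Zscan4-ps3*, and GFP-negative peaks covered 0% of both. The nearest upstream GFP-positive summit lay 4224 bp from the start of *Zscan4-ps2* and 2961 bp from that of *Zscan4-ps3*. Unlike in the 6 members, a summit lay inside the start interval of *Zscan4-ps2*, in 1 peak, and its first base was under a peak, as in *Zscan4d*. Of the 2.5 kb upstream, 8.24% was covered in *Zscan4-ps2* and 9.12% in *Zscan4-ps3*, against 10.2% in *Zscan4d* and 0 in the other members. The strongest peak of the body of *Zscan4-ps2* had a −log10 q of 7.08. *Zscan4-ps2* matched the body of *Zscan4f* at 99.5% identity, closer than *Zscan4c* did with 99.4%.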
